A study of Mus musculus with 84 samples.

Results

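Pan-reactive genes are transcripts reported to rise in astrocytes after very different injuries. This account follows 10 of them grouped under the name of acute-phase genes, Lcn2, Serpina3n, Steap4, S1pr3, Timp1, Hspb1, Cd44, Osmr, Cp and Aspg. They were taken as a named list and matched by Ensembl identifier to symbols of the mouse build GRCm38. All 10 are among the 48526 genes of the table from experimental autoimmune encephalomyelitis (EAE) and the 25773 genes of the table on astrocyte subtypes. Together the tables hold 84 libraries.

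The EAE experiment used adult female C57BL/6J mice immunized with a myelin oligodendrocyte glycoprotein peptide in complete Freund's adjuvant and given pertussis toxin, and unimmunized C57BL/6J mice as controls. Live cells negative for CD11B and CD45 and positive for ACSA-2, an astrocyte surface antigen, were sorted from hindbrain (HB) into GLASTneg and GLASTpos fractions, GLAST being an astrocyte glutamate transporter, and from spinal cord (SC) as GLASTneg cells. Stages were control (C), score 1 with a limp tail (E1), score 4 with hind leg paralysis (E4) and chronic disease (Ech), with 5, 6, 6 and 6 libraries for HB GLASTneg, 5, 6, 6 and 4 for HB GLASTpos and 5, 5, 6 and 6 for SC GLASTneg. By the labels, the subtype experiment held 3 libraries each of GLASTneg and GLASTpos forebrain (FB) and hindbrain cells and of GLASTneg spinal cord cells from untreated wildtype FVB/N mice, and 3 of primary astrocytes grown from newborn C57BL/6J cerebrum. Cells of more than one mouse could be pooled in a library. Titles carry numbers, of which 26 of 33 recur in more than 1 population of a stage, so that libraries of different populations may come from the same mice, which the labels do not state. The p-values measure the spread between libraries, and tests between populations treat them as independent.

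The acute-phase response is a change in secreted proteins during inflammation, best known from liver, where interleukin-6 family cytokines act through gp130, JAK kinases and STAT3 with C/EBP factors. Astrocytes carry the same machinery, including the oncostatin M receptor, and switch on part of the same programme when tissue around them is inflamed. In EAE, T cells against myelin enter the spinal cord first and most heavily.

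Libraries were checked against their labels before the 10 genes were compared. Totals ran from 1313682 to 4895220 counts in the EAE libraries, so 3 counts, the limit that a count of 0 allows, correspond to 0.613 to 2.28 CPM, the usual unit of counts relative to the total of a library, here scaled between libraries by edgeR's trimmed mean of M values (TMM). Reads came from the 3′ ends of transcripts, so levels are compared within a gene and not between genes. The summed level of 10 astrocyte markers was 24380 to 34440 CPM as a group mean in every hindbrain group, but in SC GLASTneg cells it went from 19460 CPM in controls (15020 to 22950) to 10520 at E1 (4269 to 25540), 1487 at E4 (665 to 2377) and 1342 at Ech (786.3 to 1781), with all 10 markers detected in every group. Of these, Aqp4, the astrocyte water channel, went from 955 CPM in spinal cord controls to 83.8 at E4. A sum of 10 oligodendrocyte markers was 21740 CPM in spinal cord controls and 38620, 48970 and 30630 at E1, E4 and Ech, against 1249 to 6333 in the hindbrain groups, so the astrocyte label of the spinal cord EAE libraries is only partly borne by their markers. In bulk RNA fewer cells of a type and less RNA per cell cannot be told apart. SC GLASTneg E4 replicate 2 held 5155 CPM over 12 myeloid markers and 627.9 over 10 neutrophil markers, against at most 261.8 and 30.34 in the other E4 libraries. SC GLASTneg E1 replicate 1 is named hindbrain in one label field and spinal cord in another, and its sum over 39 Hox genes, 584.1 CPM, lay within the range of the other 21 spinal cord libraries (190.9 to 1322) and above all 44 hindbrain libraries (0 to 109.7). The S number in a library's label is called sample sheet number here, and the labels do not state its meaning. These numbers were up to 56 in all HB GLASTneg libraries and in 1 of 5, 5 of 6 and 2 of 6 SC GLASTneg libraries at E1, E4 and Ech, and 57 or above in the other libraries, all SC GLASTneg controls included.

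The stage comparisons asked how the genes responded over the disease course in each population. In SC GLASTneg cells 4 of the 10, Lcn2, Serpina3n, Hspb1 and Osmr, rose at E1, at E4 and at Ech (edgeR quasi-likelihood test, Benjamini-Hochberg adjusted p below 0.05 and a log2 fold change above 1), where 2.5%, 6.8% and 5.16% of all 23324 genes tested were higher. Aspg fell at Ech, where 9.57% of all genes were lower. In HB GLASTneg cells the same 4 genes rose at E1 (0.635% of all genes higher), Lcn2, Serpina3n and Osmr at E4 (0.707%) and Serpina3n at Ech (0.189%). In HB GLASTpos cells Serpina3n, Timp1, Cd44 and Osmr rose at E1 (1.27%), and Serpina3n at E4 (1.66%) and Ech (1.21%). By edgeR, Serpina3n was thus called in all 9 comparisons, and Cp, S1pr3 and Steap4 in none of them.

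A second count used no model and asked whether every EAE library lay above every control. This held for 4, 6 and 2 of the 10 genes in HB GLASTneg cells at E1, E4 and Ech, against 1.46%, 1.81% and 0.815% of all genes. It held for 2, 3 and 1 of them in HB GLASTpos cells, against 0.609%, 1.09% and 2.25%, and for 2, 3 and 2 in SC GLASTneg cells, against 1.96%, 5.35% and 5.11%. The median difference in mean log2(CPM + 1) over the 10 genes was 2.03, 1.87 and 0.96 in HB GLASTneg cells, 1.23, 1.27 and 0.05 in HB GLASTpos cells and 1.37, 0.68 and 0.83 in SC GLASTneg cells, beside a median of 0 over all genes in each comparison. The 3 stages of a population share its control libraries.

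**Figure D1:**
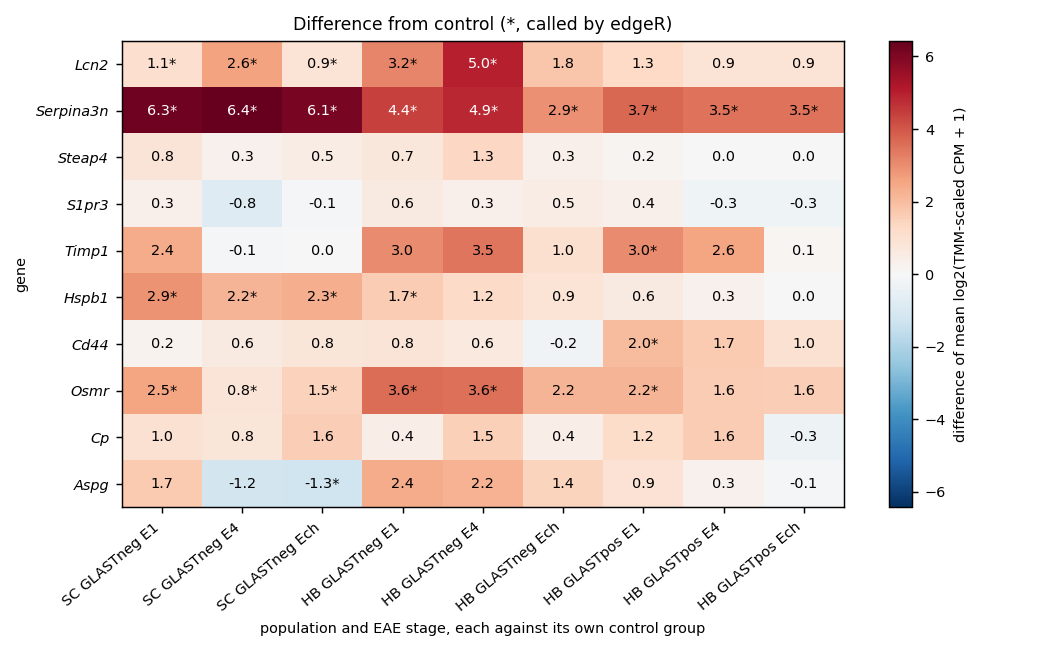
Difference in mean log2(CPM + 1) between each EAE stage and the controls of its own population (columns), for each of the 10 genes (rows), with an asterisk where edgeR called the gene. Serpina3n is marked in all 9 columns, while Steap4, S1pr3 and Cp are marked in none.

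To show the sequences behind the genes called in spinal cord at every stage, the 250 bases before the annotated start of Lcn2, Serpina3n, Hspb1 and Osmr are given from RefSeq (GRCm38.p6), 5′ to 3′ on the strand of the gene, with Steap4 added as the gene with the most motif matches. Capitals mark matches on either strand to motifs of factors linked to acute-phase or stress transcription. The windows are chr2:32387740-32387989 on the minus strand for Lcn2, chr12:104406458-104406707 on the plus strand for Serpina3n, chr5:135887669-135887918 on the plus strand for Hspb1, chr15:6874314-6874563 on the minus strand for Osmr and chr5:7960222-7960471 on the plus strand for Steap4.
Lcn2: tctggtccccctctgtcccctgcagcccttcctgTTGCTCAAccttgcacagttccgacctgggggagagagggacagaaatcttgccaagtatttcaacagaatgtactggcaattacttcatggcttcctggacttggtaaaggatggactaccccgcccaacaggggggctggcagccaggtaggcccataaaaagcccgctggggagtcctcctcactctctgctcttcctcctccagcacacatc
Serpina3n: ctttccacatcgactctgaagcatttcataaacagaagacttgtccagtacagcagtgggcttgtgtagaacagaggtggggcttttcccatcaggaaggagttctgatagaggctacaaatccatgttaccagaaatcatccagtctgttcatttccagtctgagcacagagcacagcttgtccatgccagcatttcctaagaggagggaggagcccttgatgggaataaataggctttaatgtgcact
Hspb1: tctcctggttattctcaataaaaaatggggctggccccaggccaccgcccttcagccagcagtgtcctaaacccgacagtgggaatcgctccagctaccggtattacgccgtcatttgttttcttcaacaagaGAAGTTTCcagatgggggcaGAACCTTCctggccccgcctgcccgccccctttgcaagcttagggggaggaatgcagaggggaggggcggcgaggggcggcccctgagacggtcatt
Osmr: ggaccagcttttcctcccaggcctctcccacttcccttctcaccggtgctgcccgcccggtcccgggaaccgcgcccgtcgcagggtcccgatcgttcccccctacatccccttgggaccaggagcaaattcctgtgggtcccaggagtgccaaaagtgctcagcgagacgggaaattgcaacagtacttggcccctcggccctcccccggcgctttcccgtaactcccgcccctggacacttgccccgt
Steap4: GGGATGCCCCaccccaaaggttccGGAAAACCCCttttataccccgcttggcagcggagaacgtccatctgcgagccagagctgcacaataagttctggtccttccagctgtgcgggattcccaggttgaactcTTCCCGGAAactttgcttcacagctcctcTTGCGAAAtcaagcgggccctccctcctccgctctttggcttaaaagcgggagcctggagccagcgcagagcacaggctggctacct

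The motifs were searched in windows of 250 bases before to 50 bases after each start, in which all 10 genes matched an entry. The STAT motif TTCNNNGAA was found for Steap4, and 8.3% of all 32851 windows held it. The C/EBP motif TTGCNNAA was found for Lcn2, Steap4 and the second start of Cp (10.8% of windows), AP-1 TGANTCA for the first start of Cp and, after the start, for Osmr (7.81%), and the heat shock element GAANNTTC 2 times for Hspb1 (7.86%). The kappaB motif matched Steap4 2 times (8.46%), and the interferon-stimulated response element (ISRE) matched none of the 10 genes (3.44%). Serpina3n, S1pr3, Timp1, Cd44 and Aspg held no match to any of these. A match describes letters and not a bound site, and no match says nothing about a factor. For Serpina3n, S1pr3 and Osmr the bases after the RefSeq start were not found near the start of a transcript in a separate annotation, so their windows may be displaced. The windows of Lcn2 and Osmr lie inside the gene intervals printed in this account. Those intervals come from that separate annotation, so RefSeq places these starts further in than the outer end of the gene.

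**Figure D2:**
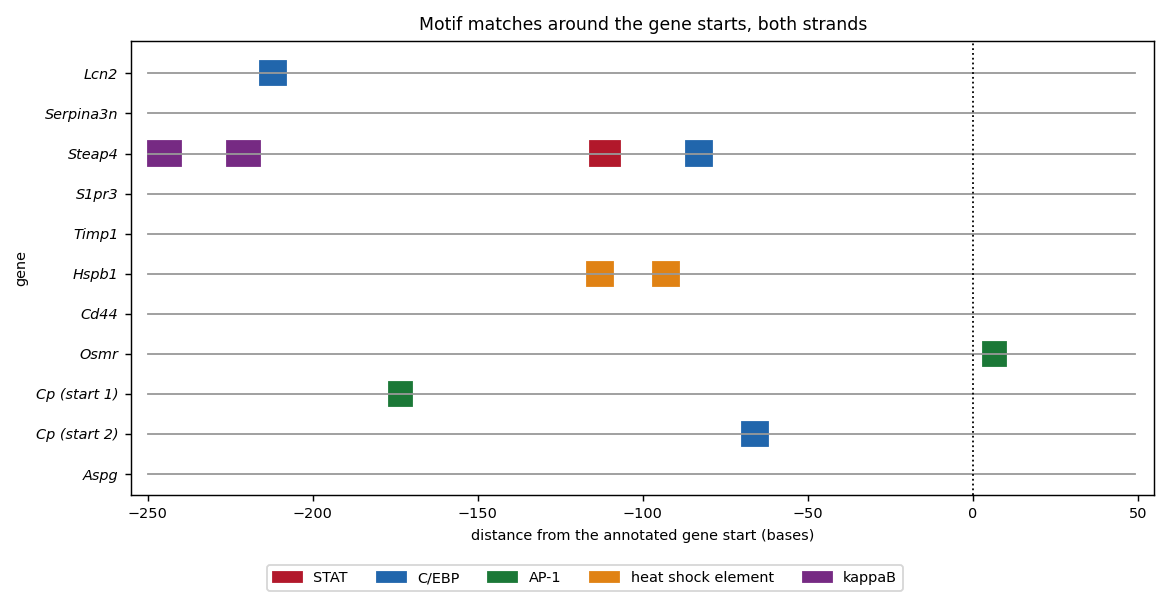
Positions of the motif matches (coloured blocks) from 250 bases before to 50 after the annotated start (dotted line at 0) of each gene, x axis in bases, 1 row per gene start. Steap4 holds 4 matches and Hspb1 2, and Serpina3n, S1pr3, Timp1, Cd44 and Aspg hold none.

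Serpina3n (ENSMUSG00000021091, GRCm38 chromosome 12, 104406729-104414329, plus strand) encodes a secreted serine protease inhibitor of the antichymotrypsin family. In SC GLASTneg controls it stood at 32.2, 23.3, 17.5, 22.0 and 12.6 CPM, and at E1 at 1214, 766.6, 2385, 1639 and 3428 CPM. At E4 the lowest, median and highest of 6 libraries were 1675, 1791 and 2160 CPM, and at Ech 388.4, 1529 and 3315. Every spinal cord EAE library lay above every control, and the E4 libraries were the most even of the 3 stages. The means were 87.7, 87.1 and 86.1 times the control mean of 21.5 ± 7.30 CPM (SD, n = 5), with edgeR log2 fold changes of 6.46 ± 0.59 (SE), 6.45 ± 0.58 and 6.43 ± 0.58 and adjusted p = 5.957e-13, 5.932e-15 and 8.521e-15. Between E4 and E1 the log2 fold change was -0.01 ± 0.44, and between Ech and E4 -0.02 ± 0.42. In the same spinal cord EAE groups the mean astrocyte marker sum was lower and the oligodendrocyte sum higher than in controls, as given above. The part of this cell makeup in the Serpina3n result was not tested.

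Serpina3n in HB GLASTneg cells went from 14.4 ± 7.15 CPM (SD, n = 5) to 329 ± 154, 426 ± 119 and 124 ± 69.9 (n = 6 each). In HB GLASTpos cells it went from 6.92 ± 4.92 CPM (n = 5) to 100 ± 77.8 and 73.8 ± 37.8 (n = 6 each) and 69.6 ± 32.5 (n = 4). All EAE libraries of both fractions lay above all of their controls. The log2 fold changes were 4.52, 4.89 and 3.12 in HB GLASTneg (adjusted p = 1.575e-08, 9.854e-10 and 0.000262, edgeR) and 3.89, 3.45 and 3.36 in HB GLASTpos cells (6.53e-07, 4.793e-06 and 0.000171). The chronic rise was larger in SC GLASTneg than in HB GLASTneg cells by 3.31 ± 0.68 on the log2 scale (edgeR interaction, adjusted p = 0.000282), but the same difference was 2.91 with adjusted p = 0.725 when limma-voom with title numbers as a block was used. At E1 and E4 the difference was 1.93 (adjusted p = 0.193) and 1.55 (0.142).

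The genome holds a cluster of Serpina3 copies whose 3′ reads may be shared or split between them. Of 10 cluster genes beside Serpina3n, 5 were tested, and 2, 4 and 3 of them rose in SC GLASTneg cells at E1, E4 and Ech (2.5%, 6.8% and 5.16% of all genes higher), against 0 in the 6 hindbrain comparisons. At E4 these were Serpina3m (8.30 on the log2 scale), Serpina3i (7.41), Serpina3c (6.99) and Serpina3f (5.34), and part of their counts may come from Serpina3n reads.

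**Figure D3:**
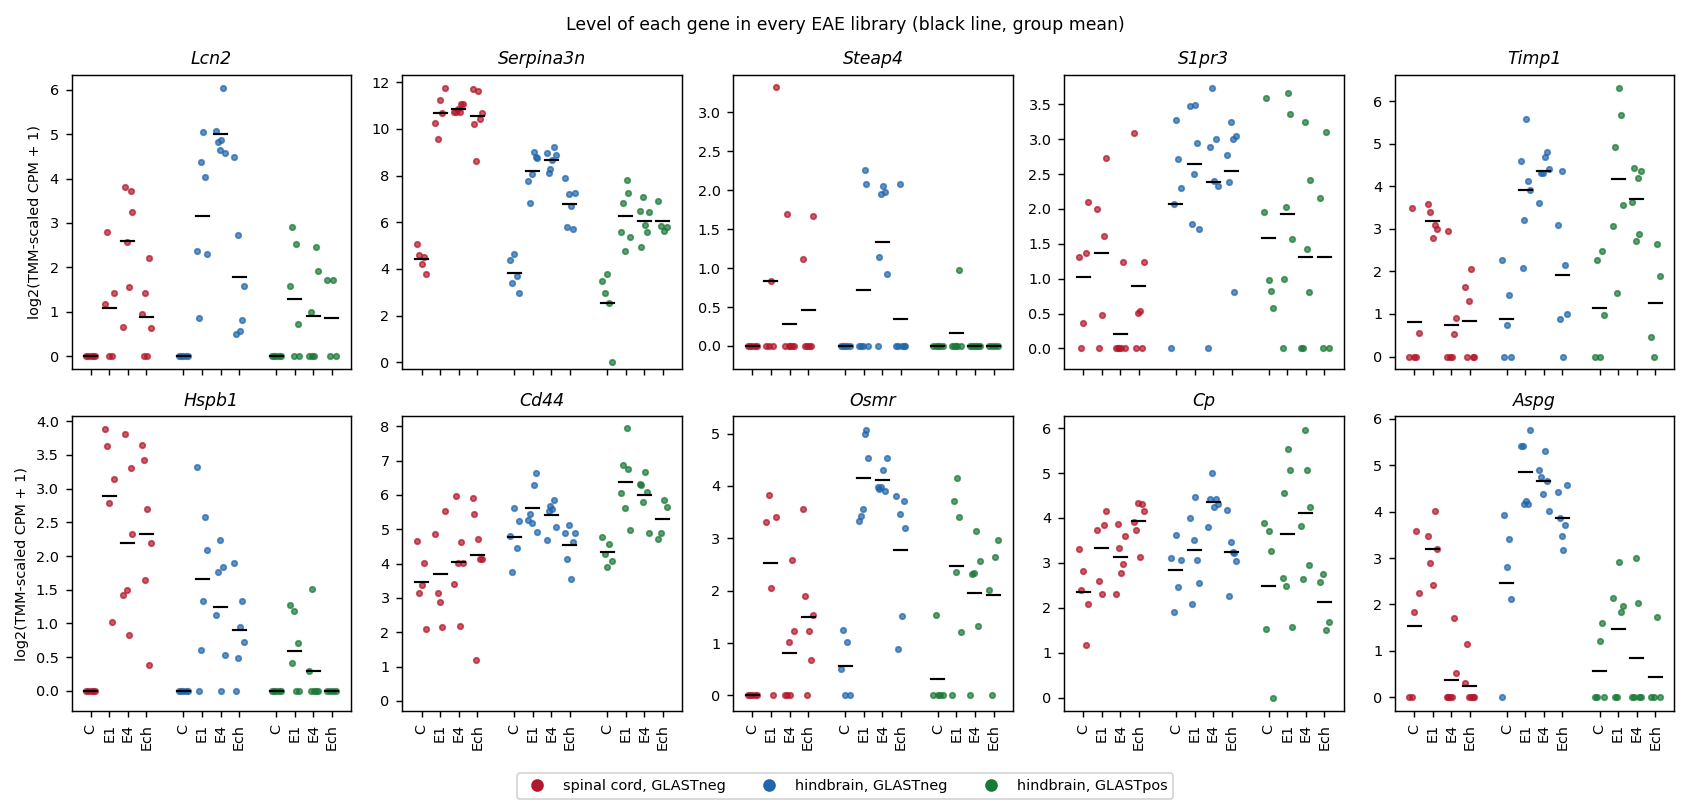
log2(TMM-scaled CPM + 1) of each gene (1 panel each, y axes differ) in every EAE library (points), by stage (C, E1, E4, Ech) and population (red, SC GLASTneg; blue, HB GLASTneg; green, HB GLASTpos), with black lines at group means. Serpina3n is above the controls in every EAE library of all 3 populations, whereas Lcn2, Timp1, Osmr and Aspg reach their upper values in hindbrain libraries.

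Lcn2 (ENSMUSG00000026822, GRCm38 chromosome 2, 32384633-32388252, minus strand) encodes lipocalin-2, which binds iron-loaded bacterial siderophores and is secreted in inflammation; neutrophil granules contain it as well. No count was found in any of the 15 controls. In HB GLASTneg cells the lowest, median and highest libraries were 0.814, 9.81 and 32.1 CPM at E1, 22.7, 27.7 and 65.03 at E4 and 0.421, 1.37 and 21.6 at Ech. All 18 of these libraries had counts. Against 3 counts in the shallowest control the mean of 33.3 ± 15.9 CPM at E4 (SD, n = 6) was at least 16.7-fold higher, and those of 12.7 ± 12.04 at E1 and 5.14 ± 8.28 at Ech at least 6.35-fold and 2.57-fold higher. The Ech fold rests largely on HB GLASTneg Ech replicate 1, with 63 of 87 counts. The Ech median lay under the limit of 1.998 CPM of that control. edgeR called E1 (adjusted p = 0.00706) and E4 (0.000662), and not Ech (0.118, and 0.0138 by DESeq2).

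In SC GLASTneg cells Lcn2 stood at 1.24, 5.92, 0, 0 and 1.69 CPM at E1. At E4 the lowest, median and highest were 0.564, 6.68 and 13.0 CPM, and at Ech 0, 0.744 and 3.60. The E4 mean of 6.86 ± 5.24 CPM (SD, n = 6) was at least 4.62-fold above the controls (adjusted p = 0.000822), and every E4 library lay below every HB GLASTneg E4 library. The calls at E1 (adjusted p = 0.0489) and Ech (0.0475) were weak, the Ech mean of 1.13 CPM lying under the 3-count limit of the shallowest control, and they held in 2 of 10 and 3 of 11 fits that left out a library in turn. Without SC GLASTneg E1 replicate 1 the E1 value was 5.47 with adjusted p = 0.0532. In HB GLASTpos cells means were 2.32, 1.38 and 1.15 CPM, with adjusted p = 0.0633, 0.107 and 0.156.

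Neutrophil markers were measured beside Lcn2. Their sum in HB GLASTneg cells was 2.02 CPM in controls and 11.7, 13.4 and 5.63 at E1, E4 and Ech, with 4, 8, 7 and 6 of the 10 markers having counts. In the library highest in Lcn2 the sum was 11.34 CPM at E1 and 6.159 at Ech, each the next to highest of the 6. In the E4 library with 65.03 CPM of Lcn2 the sum was 7.76, the next to lowest of the 6. The part of neutrophils in the Lcn2 results was not tested. The sum of 12 myeloid markers in HB GLASTneg cells was 93.4 CPM in controls and 324.6, 376.1 and 356.5 at E1, E4 and Ech, all 12 having counts in each group, and its part in the hindbrain results of all 10 genes was not tested. In spinal cord at E4, replicate 2 held 627.9 CPM of neutrophil markers and 13.0 CPM of Lcn2, and without it the log2 fold change was 7.10 (adjusted p = 0.00164).

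Timp1 (ENSMUSG00000001131, GRCm38 chromosome X, 20870166-20874735, plus strand) encodes an inhibitor of matrix metalloproteinases, and it lies antisense to Syn1, so that reads could not be assigned by strand where the counting setting is not stated. In HB GLASTpos controls it stood at 0, 3.79, 0, 4.57 and 0.982 CPM, and at E1 the lowest, median and highest were 1.79, 20.1 and 78.4 CPM. These groups overlapped, and the gene was called (log2 fold change 3.93 ± 1.06, adjusted p = 0.034), in 5 of 11 fits that left out a library. At E4 the range was 5.52 to 20.4 CPM, above every control, with adjusted p = 0.136. In HB GLASTneg cells the mean went from 1.24 CPM to 18.6 ± 15.3 at E1 and 20.1 ± 5.52 at E4 (SD, n = 6), the E4 libraries all above the controls, with adjusted p = 0.101 and 0.0893 by edgeR and 0.0287 and 0.0216 by DESeq2.

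In SC GLASTneg controls Timp1 stood at 0, 10.2, 0, 0 and 0.468 CPM, and at E1 at 10.9, 9.57, 5.92, 7.54 and 7.03. The control with 10.2 CPM decides the comparison, since the log2 fold change at E1 was 1.88 (adjusted p = 0.233) with it and 5.91 (0.00699) without it. At E4 and Ech the medians were 0.227 and 0.74 CPM. The E4 change was smaller in SC GLASTneg than in HB GLASTneg cells by 4.67 ± 1.52 on the log2 scale (adjusted p = 0.0395, where 6% of all genes had a lower response in spinal cord), and this difference was called in 10 of 22 fits that left out a library and was -0.66 without that same control. It was lost with sample sheet number as a term (adjusted p = 0.106) and with limma-voom and title numbers as a block (0.0981). SC GLASTneg E4 replicate 2, the library with many myeloid transcripts, held 6.74 CPM, and without it the fall from E1 to E4 was called (-4.72, adjusted p = 0.00931).

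Cp (ENSMUSG00000003617, GRCm38 chromosome 3, 19957054-20009145, plus strand) encodes ceruloplasmin, a copper-carrying ferroxidase that circulates from liver and is anchored on astrocytes, and it overlaps Hps3 on the other strand. All HB GLASTneg E4 libraries (12.9 to 30.9 CPM) lay above all controls (2.76 to 11.3), with means of 20.2 ± 5.91 (SD, n = 6) and 6.71 ± 3.28 CPM (n = 5) and a log2 difference of 1.61 ± 0.64 that was not called (adjusted p = 0.489). In SC GLASTneg cells the mean was 4.75 CPM in controls and 14.8 ± 4.41 at Ech (n = 6, adjusted p = 0.059), which was called by DESeq2 (0.0338) and without SC GLASTneg C replicate 1 (0.0421, edgeR). Group means elsewhere in the EAE experiment lay between 3.70 and 22.9 CPM.

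Osmr (ENSMUSG00000022146, GRCm38 chromosome 15, 6813577-6874969, minus strand) encodes the ligand-specific chain of the oncostatin M receptor, which pairs with gp130. In HB GLASTneg controls it stood at 0.425, 1.38, 0, 1.04 and 0 CPM. The lowest, median and highest values were 9.02, 16.5 and 32.7 CPM at E1, 14.04, 14.76 and 22.27 at E4 and 0.843, 9.16 and 13.0 at Ech. All E1 and E4 libraries lay above all controls. The log2 fold changes were 4.88 ± 1.19 (adjusted p = 0.0211) and 4.65 ± 1.18 (0.029), held in 8 and 6 of 11 fits with a library left out (HB GLASTneg C replicates 1, 3 and 5 ended the first, any HB GLASTneg C replicate the second), and 3.56 at Ech (0.478).

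In HB GLASTpos cells Osmr stood at 0, 1.90, 0, 0 and 0 CPM in controls and at 0, 6.86 and 16.7 (lowest, median, highest) at E1, called at 4.26 ± 1.19 (adjusted p = 0.0432) but in 4 of 11 fits with a library left out. The call was lost without HB GLASTpos C replicate 1, 3, 4 or 5 or E1 replicate 2, 4 or 5 (adjusted p = 0.0638 to 0.132). The E1 libraries held 0, 12.1, 4.10, 16.7, 9.63 and 1.30 CPM of Osmr beside 2.26, 170.8, 8.19, 462.7, 114.6 and 10.8 CPM of 8 T cell markers, in the same order of libraries. The 3 libraries highest in one were also the 3 highest in the other, and the part of T cells was not tested. In SC GLASTneg cells it was at 0 in all 5 controls and at 8.96, 13.2, 3.16, 0 and 9.56 CPM at E1. At E4 the median was 0.519 CPM and the highest 5.00, and at Ech 1.64 and 10.8. All stages were called (adjusted p = 0.00111, 0.0184 and 0.00325), the means at E1 and Ech being at least 4.69-fold and 1.96-fold above the limit of the shallowest control. At Ech 46 of 67 counts were in SC GLASTneg Ech replicate 1, so the Ech fold rests largely on 1 library. The E4 mean of 1.23 CPM lay under that limit of 1.49 CPM, with 22 of 29 counts in SC GLASTneg E4 replicate 5, and the call was lost without that library (0.109). So the spinal cord rise came from more libraries at E1 than at E4, when 3 of 6 had no count.

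Cd44 (ENSMUSG00000005087, GRCm38 chromosome 2, 102811141-102901665, minus strand) encodes a cell surface receptor for hyaluronan and osteopontin that T cells and macrophages also carry. In HB GLASTpos controls it stood at 26.6, 18.57, 14.03, 22.85 and 15.7 CPM, and the lowest, median and highest values were 30.6, 86.2 and 246 CPM at E1 and 28.7, 72.3 and 102 at E4. All libraries of both stages lay above all controls. E1 was called (2.39 ± 0.55 on the log2 scale, adjusted p = 0.00692), though not without HB GLASTpos E1 replicate 4 (0.0672), and E4 was not (1.80 ± 0.54, adjusted p = 0.0551 by edgeR and 0.0215 by DESeq2). In 4 chronic libraries it stood at 25.3, 29.0, 57.3 and 49.3 CPM.

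In the same population the sum of 8 T cell markers was 3.28 CPM in controls and 128.2, 180.1 and 37.7 at E1, E4 and Ech, and that of 12 myeloid markers 72.7 and 209.6, 231.2 and 168.5. E1 replicate 4, with 246 CPM of Cd44 and 78.4 of Timp1, held 462.7 CPM of T cell and 411.1 of myeloid markers, the highest of its group for both, and E1 replicate 1, with 64.9 CPM of Cd44 and 7.33 of Timp1, held 2.26 and 118.8. Serpina3n (225 CPM), Cp (45.4 CPM), S1pr3 (11.6 CPM), Osmr (16.7 CPM) and Aspg (6.53 CPM) were also highest in that replicate 4. Lcn2, Steap4 and Hspb1 were not. HB GLASTneg E1 replicate 4, which carries the same title number, was likewise the highest of its group in T cell markers (98.7 CPM) and Timp1 (46.5 CPM). Serpina3n (509.6 CPM), Lcn2 (32.1), Cp (21.2), S1pr3 (10.2) and Steap4 (3.78) were highest there too, while Cd44, Osmr, Hspb1 and Aspg were not. SC GLASTneg E1 replicate 4 carries that title number as well, and its T cell sum of 12.67 CPM was the next to lowest of its group. It was the lowest of its group in Cd44 (3.425 CPM) and Hspb1 (1.028) and had no count of Osmr, Lcn2 or Steap4. Aspg (15.07 CPM) was highest there, and Serpina3n, Timp1, Cp and S1pr3 were neither highest nor lowest. At E4 the library with 751.2 CPM of T cell markers held 78.1 CPM of Cd44, within the range of the rest. The part of T cells and myeloid cells in the results of the genes named here, Serpina3n included, was not tested. In HB GLASTneg cells Cd44 means were 29.1, 53.3, 42.8 and 23.6 CPM at C, E1, E4 and Ech, and in SC GLASTneg cells 11.99, 18.12, 21.5 and 27.0, with no call. SC GLASTneg E4 replicate 2 held the E4 maximum, 61.5 CPM, and without it the log2 difference went from 0.84 to 0.19.

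S1pr3 (ENSMUSG00000067586, GRCm38 chromosome 13, 51408639-51422797, plus strand), a G protein-coupled receptor for sphingosine 1-phosphate, was not called in any stage comparison. Its means were 4.27 to 6.07 CPM in HB GLASTneg, 2.54 to 4.49 in HB GLASTpos and 0.227 to 2.21 in SC GLASTneg cells. At E4 in spinal cord 5 of 6 libraries had no count, and the difference from controls was -2.03 on the log2 scale (adjusted p = 0.257, edgeR). The controls held 16 counts in all. Every E4 count was in SC GLASTneg E4 replicate 5, so leaving that library out sets the group to 0. The call then made (adjusted p = 0.0354) follows from that choice and does not show a fall. The gene overlaps an antisense model, Gm32834.

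Hspb1 (ENSMUSG00000004951, GRCm38 chromosome 5, 135887919-135889563, plus strand) encodes HSP27, a small heat shock protein that holds unfolding proteins and caps actin. It had no count in any of the 15 controls. In SC GLASTneg cells it stood at 13.7, 11.4, 5.92, 1.03 and 7.87 CPM at E1. The lowest, median and highest were 0.778, 2.91 and 13.0 CPM at E4 and 0.30, 4.51 and 11.5 at Ech. All 17 spinal cord EAE libraries therefore had counts, with means of 7.98 ± 4.92, 5.03 ± 4.88 and 5.46 ± 4.40 CPM, at least 5.37-fold, 3.38-fold and 3.67-fold above 3 counts in the shallowest control, and adjusted p = 0.00103, 0.000601 and 0.000639 (edgeR), called in all fits that left out a library.

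Hspb1 means in HB GLASTneg cells were 3.21, 1.72 and 1.04 CPM at E1, E4 and Ech. E1 was called (adjusted p = 0.0453), in 2 of 11 fits with a library left out. In HB GLASTpos cells means were 0.61, 0.345 and 0 CPM, which at this depth could not be told from the controls. Of 12 small heat shock proteins and partners tested, none rose in any of the 9 stage comparisons and 1, Hspb8, fell (-1.06, spinal cord, Ech). Cryab, the alpha B crystallin, was at -0.02 on the log2 scale in spinal cord at E4.

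Steap4 (ENSMUSG00000012428, GRCm38 chromosome 5, 7960457-7982213, plus strand) encodes a metalloreductase of iron and copper. No control held a count, and most EAE libraries were also at 0. Counts were found in 5 of 6 HB GLASTneg E4 libraries, up to 3.14 CPM, and the highest value of the experiment was 9.00 CPM in SC GLASTneg E1 replicate 5. In HB GLASTpos cells 1 library of E1 held 3 counts. No stage was called.

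Aspg (ENSMUSG00000037686, GRCm38 chromosome 12, 112106679-112127559, plus strand) encodes an asparaginase-like enzyme that also carries lysophospholipase activity, and the microRNA genes Mir3073a and Mir3073b lie within it. In HB GLASTneg controls it stood at 0, 14.3, 5.99, 9.69 and 3.37 CPM. The lowest, median and highest were 16.96, 29.64 and 53.5 CPM at E1, 15.2, 25.2 and 38.5 at E4 and 7.98, 12.8 and 22.7 at Ech. The E1 and E4 libraries all lay above the controls, while the log2 differences of 2.22 ± 0.94 and 1.92 ± 0.93 were not called (adjusted p = 0.474 and 0.559, edgeR).

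In SC GLASTneg cells Aspg stood at 0, 0, 2.58, 11.0 and 3.74 CPM in controls and at 10.2, 6.38, 4.34, 15.1 and 8.15 at E1. At E4 and Ech 4 of 6 libraries had no count and the highest held 2.27 and 1.22 CPM. E4 lay below E1 without overlap (-3.91 ± 1.05 on the log2 scale, adjusted p = 0.0112, where 3.97% of all genes were lower), a call that was lost with these 2 groups fitted alone (0.0534) and with sample sheet number as a term (0.288). The sheet numbers given above differ between these groups. Ech fell below controls (-3.67 ± 1.14, 0.0152), though not without SC GLASTneg C replicate 4 (0.152). The response was lower in SC GLASTneg than in HB GLASTneg cells at E4 (-4.51 ± 1.41, adjusted p = 0.0307, called in 18 of 22 fits with a library left out, and lost with the sheet number term at 0.343 and with replicate numbers as a block at 0.0546) and at Ech (-4.78 ± 1.47, 0.0298, in 16 of 22, and at 0.164 and 0.15 without SC GLASTneg C replicate 4, where 5.26% of all genes had a lower and 1.54% a higher response). The astrocyte marker sum of the same spinal cord groups was also lower at E4 and Ech, as given above, and its part in the result was not tested. Among controls Aspg was lower in HB GLASTpos (0.667 CPM) than in HB GLASTneg cells (6.66 CPM) by 3.17 on the log2 scale (adjusted p = 0.0404, 7.06% of all genes lower), in 3 of 10 fits with a library left out.

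Several comparisons called none of the 10 genes. These were the E1 response of SC GLASTneg against HB GLASTneg cells, the HB GLASTpos against HB GLASTneg response at E1, E4 and Ech, spinal cord Ech against E4 and control SC GLASTneg against HB GLASTneg, in which 0.214%, 0.00857%, 0.00857%, 0.06%, 3.16% and 4.2% of all genes were called. In these edgeR tests 1, 1, 1, 0, 1 and 2 of the 10 genes had an unadjusted p below 0.05, and DESeq2 called 0 in each. In edgeR the interaction could not be estimated for Lcn2, Hspb1 and Steap4, which were at 0 in all controls, nor for Osmr in spinal cord. limma-voom with title numbers as a block gave -5.10 (adjusted p = 0.0328) for Lcn2 in HB GLASTpos against HB GLASTneg cells at E4, a value against controls at 0 that is no bound.

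Genes around the 10 were described from lists of their pathways. Of 19 genes of IL-6 family and STAT3 signalling, 5, 6 and 5 rose in SC GLASTneg cells at E1, E4 and Ech, 4, 4 and 0 in HB GLASTneg and 4, 4 and 0 in HB GLASTpos cells. Of all genes 2.5%, 6.8% and 5.16% were higher in SC GLASTneg, 0.635%, 0.707% and 0.189% in HB GLASTneg and 1.27%, 1.66% and 1.21% in HB GLASTpos cells. Lifr fell in spinal cord at Ech (-1.12), where 9.57% of all genes were lower. At E4 in spinal cord these were Bcl3 (7.49 on the log2 scale), Cebpb (7.30), Socs3, the feedback inhibitor of the pathway (5.66), Cebpd (2.73), Stat3 (1.84) and Ptpn11 (1.74), and Stat3 was at 1.61 in HB GLASTneg and 2.06 in HB GLASTpos cells. The partners of Osmr were not called there, with Il6st, which encodes gp130, at 0.64, Lifr at 0.26 and Osm, the ligand, at 2.46 (adjusted p = 0.227). Of the other 3 pan-reactive genes examined, Gfap and Cxcl10 rose at E1 and E4 in all 3 populations, and Vim rose in SC GLASTneg cells at E4. At Ech 2, 2 and 1 of the 3 rose in SC GLASTneg, HB GLASTneg and HB GLASTpos cells, beside the shares of all genes given above. Cxcl10 went from 0 to 49.1 and 57.5 CPM in HB GLASTneg cells.

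Of 16 tested genes of iron and copper handling 3 rose and 3 fell in spinal cord at E4, where 6.8% of all genes were higher and 11.1% lower. Hp, haptoglobin, was at 9.48, Hmox1, heme oxygenase, at 3.89 and Fth1, ferritin heavy chain, at 1.71, whereas Heph, a ferroxidase like Cp, was at -4.84, Steap1 at -3.23 and Atp7b at -2.46. Of 11 CD44 ligands and hyaluronan genes 5 rose and 4 fell there, with Spp1, osteopontin, at 4.92, Fn1, fibronectin, at 5.09 and Has1, a hyaluronan synthase, at -4.61. Of 13 TIMPs and metalloproteinases none rose and 4 fell, beside the same 6.8% and 11.1%, among them Timp3 (-2.69) and Timp4 (-2.88). Of 9 genes of the sphingosine 1-phosphate pathway S1pr5, an oligodendrocyte receptor, rose (1.74) and S1pr1 fell (-4.96). In spinal cord at E4 the myeloid and oligodendrocyte sums above moved with these lists, and their part was not tested.

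The genes whose pattern was most like each of the 10 were named by Pearson correlation of log2(CPM + 1) over the 66 EAE libraries, among 10972 genes whose mean level reached 5 CPM, as a description of libraries that share stage and population. For Serpina3n these were Bcl3 (r = 0.891), Tubb3 (0.875) and C4a (0.875), and for Aspg Endou (0.811), Tfrc (0.778) and Fstl1 (0.778). Cxcl10 was nearest to Osmr (0.818), Timp1 (0.724) and Steap4 (0.504). Lcn2 was nearest to F830016B08Rik (0.765), 9330175E14Rik (0.697) and Gm4951 (0.68), Hspb1 to Endod1 (0.728), Bcl3 (0.709) and Lrrc8c (0.70), and Cd44 to Mocs2 (0.672), Mylip (0.654) and Cxcl5 (0.653). Timp1 was next nearest to Gfap (0.705) and Il17ra (0.696), Osmr to Lgals3bp (0.728) and Rsad2 (0.71), and Steap4 to C3 (0.504) and Il1rn (0.492). Cp was nearest to Serping1 (0.606), H2-Q7 (0.604) and Irf8 (0.586), and S1pr3 to Prkd1 (0.597), Ackr3 (0.557) and Gm4491 (0.556). Among the 45 pairs of the 10 genes r ran from -0.07 to 0.74, with a median of 0.37, and Serpina3n with Hspb1 was the highest.

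The subtype experiment asked how the genes stood in unstimulated cells of different regions and in culture. Isolated FVB/N libraries were shallow, 416768 to 1269316 counts, so 3 counts correspond to 2.36 to 7.2 CPM, and Lcn2 and Steap4 had no count in any of the 15. The group names of 12 of the 15 differ between the labels and a supplementary list of the study, which gives the libraries labelled HB GLASTneg as spinal cord and those labelled SC GLASTneg as HB GLASTpos. Hox genes, transcribed in hindbrain and spinal cord by position, summed to 1069 to 1111 CPM over 33 genes in the 3 libraries labelled HB GLASTneg, 67.9 to 174 in those labelled FB GLASTpos and 0 to 20.7 in the other 9, those labelled SC GLASTneg (1.07 to 20.7) included. Vim, an intermediate filament gene, had means of 704 CPM in the libraries labelled SC GLASTneg and 60.5 in those labelled HB GLASTpos, against 5.69 in SC GLASTneg and 461 in HB GLASTpos controls of the EAE experiment, a table normalized separately. Hox sums thus go against the region named for the libraries labelled HB GLASTneg, SC GLASTneg and FB GLASTpos, and the comparisons below are between libraries as labelled. None of the 8 genes tested was called between libraries labelled FB GLASTpos and FB GLASTneg (1 at an unadjusted p below 0.05, 0 by DESeq2, 1.21% of all 14957 genes called). Cd44 was higher in libraries labelled HB GLASTpos (28.5, 34.7 and 29.5 CPM) than in those labelled HB GLASTneg (8.36, 2.92 and 9.40; log2 fold change 2.16 ± 0.65, adjusted p = 0.0333, 1.95% of genes higher), in 0 of 6 fits with a library left out. Cd44 was also higher in libraries labelled SC GLASTneg (19.8, 21.6 and 73.05 CPM; 2.45, adjusted p = 0.00718, 3.1% of genes higher), though not without HB GLASTneg FVB replicate 2 (0.0737) or SC GLASTneg FVB replicate 3 (0.101).

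Aspg was lower in libraries labelled SC GLASTneg than in those labelled HB GLASTneg (adjusted p = 0.0115, 3.93% of genes lower), with 1 count against 47, a ratio of 0.0155 with an exact 95% interval of 0.000383 to 0.0904 that covers counting error only, and the call was lost without SC GLASTneg FVB replicate 1 (0.0523). With the names of the supplementary list the direction of Cd44 turned in both comparisons (-0.98 with adjusted p = 0.363, and -3.43 with 0.00036, where 1.36% of genes were called), and Aspg was at 0.28 in the second and at -5.13 (0.029, 3.76% called) in the first. Serpina3n had counts in all 15 isolated libraries, between 116 and 222 CPM, with group means of 142 to 191 CPM. The libraries labelled HB GLASTneg held 13590 CPM of oligodendrocyte markers against 1782 to 5041 in the other isolated groups.

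Cultured astrocytes differed from the mean of the 5 isolated groups in 9 of the 10 genes, 7 higher and 2 lower, where 23.3% and 8.38% of all 17126 genes tested were. DESeq2 called 6 of the 10, with Hspb1 at an adjusted p of 0.127 and none given for Lcn2 and Steap4. S1pr3 stood at 114, 154 and 106 CPM in culture against group means of 0 to 8.33 (log2 fold change 6.76 ± 0.56, adjusted p = 6.494e-13), and Cp at 122, 230 and 98.8 CPM against 0.543 to 28.9 (4.35 ± 0.41, 6.4e-12). Lcn2 had counts in all 3 cultures (3.57, 6.74 and 10.6 CPM, adjusted p = 7.476e-05), as had Steap4 (1.19, 2.40 and 2.00 CPM, 0.00267). The isolated libraries had no count of either gene, at a depth where 3 counts correspond to 2.36 to 7.2 CPM. The Steap4 values lay at the lower end of this range or under it, and of Lcn2 only 10.6 CPM lay above it. A level like that of most cultures could thus go uncounted in a single isolated library, and no fold is given. Osmr (3.05 on the log2 scale), Hspb1 (3.60) and Cd44 (1.61) were higher too. The highest isolated libraries held 21.5, 19.9 and 111.2 CPM of these genes, against 15.46 to 35.18, 5.001 to 7.082 and 63.04 to 106.8 in culture. The test averages the isolated groups on the log scale, and Hspb1 had no count in the libraries labelled HB GLASTneg and SC GLASTneg. The Hspb1 value is therefore not a fold over every isolated group. Serpina3n was lower at 12.7, 24.2 and 30.0 CPM (-2.85 ± 0.29, adjusted p = 7.559e-11), as was Aspg (-3.29 ± 1.15, 0.0226, lost without SC GLASTneg FVB replicate 2 or without cultured replicate 1 or 2), and Timp1 was not called (2.78, adjusted p = 0.0569). The median of all genes was 0.43 on the same scale.

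**Figure D4:**
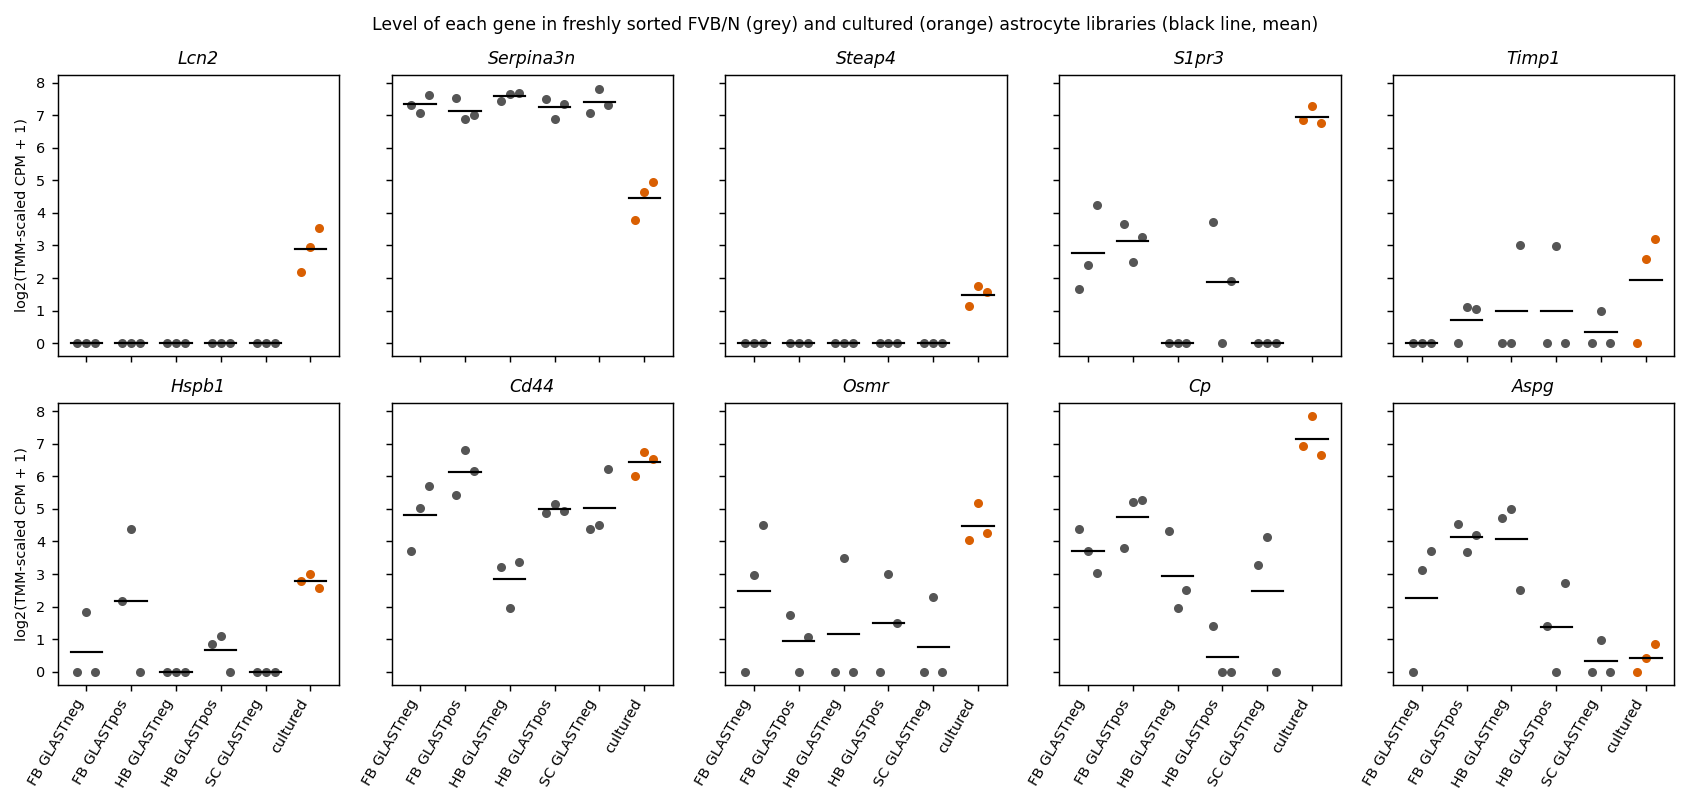
log2(TMM-scaled CPM + 1) of each gene (1 panel each) in the isolated FVB/N libraries (grey points, 5 groups of 3 by the labels) and the 3 cultured libraries (orange points), with black lines at group means. S1pr3 and Cp stand above every isolated library in culture and Serpina3n below every one.

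Strain, age, culture and the experiment's preparation differ together between cultured and isolated cells and cannot be told apart. The cultures held 5324 CPM of astrocyte markers against 30660 to 34620 in the isolated groups, 2017 of 8 fibroblast and mural markers against 131.5 to 252 and 1108 of myeloid markers against 24.2 to 223.6, and the part of these cells in the differences was not tested. Of 10 tested small heat shock genes 7 were higher in culture, beside 23.3% of all genes.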

How the data were processed

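RNA of sorted or cultured astrocytes was sequenced from its 3′ ends. The authors aligned reads with HISAT 0.1.5 to GRCm38 and counted them per gene with HTSeq 0.6.1p1, and they deposited raw counts for 66 EAE libraries and for 18 libraries of the subtype experiment. The strand setting of the counting was not given in the sources used here. Groups follow the labels, also in the subtype experiment, where Hox genes go against the region of some labels. The 10 genes and all lists were chosen with earlier results of these data known.

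Genes that summed to 10 counts or more over the libraries entered the tests, 23324 in the EAE fit, 14957 in the fit of 15 isolated libraries and 17126 with the cultures. Counts were scaled by TMM and tested with edgeR 4.0.16 (quasi-likelihood, R 4.3.3) across all groups of an experiment. A gene was called at a Benjamini-Hochberg adjusted p below 0.05, over all genes tested, and a log2 fold change beyond 1 in size. In text, rose and fell refer to called genes. Levels are TMM-scaled CPM, plotted as log2(CPM + 1). Where controls were all at 0, a fold is a bound against 3 counts in the shallowest control library. Intervals and floors cover counting error only. All 10 genes were named, context genes were named from the lists, and likeness named the 3 genes of highest Pearson r among genes of at least 5 CPM.

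EAE libraries held 1313682 to 4895220 counts, isolated ones 416768 to 1269316 and cultures 2183464 to 8188074. No libraries were identical and 0 columns were left unmapped. Counts of all EAE libraries were simulated from 1 mean per gene, without other differences between groups. At spinal cord E4, 200 genes with a mean above 5 CPM were changed by 2 on the log2 scale, and E4 was tested against C (22418 genes). Of the 200 changed genes, 152 were recovered, and 1 other gene was called. Genes at lower levels were not changed and recovery was not split by level. It therefore does not describe the power for genes at a few counts, Steap4 among them. Alternatives were RLE size factors, DESeq2 1.42.0, no count filter, the compared groups alone, replicate numbers as a block, the S number of a library's label (sample sheet number, of unstated meaning) as a term, limma 3.58.1 (voom) with title numbers as a block, the group names of the supplementary list and leaving out each library. Replicate numbers did not pair libraries (mean correlation of deviations -0.00401 over 340 pairs of equal replicate number), and the correlation within title numbers was 0.0384 (limma-voom). Promoter windows came from RefSeq (GRCm38.p6). Protein sequences were not used here.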

Additional observations from a re-analysis of the deposited data

Results flagged for a closer look

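A library far from the rest of its group was found 21 times in 107 groups of 4 to 10 libraries tested by Dixon's criterion, where chance gives about 5%. Many of these groups hold few counts, and no cause was weighed.

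For Lcn2 these were SC GLASTneg E1 replicate 2 (5.925 CPM), HB GLASTneg E4 replicate 5 (65.03) and HB GLASTneg Ech replicate 1 (21.56), and for Serpina3n HB GLASTpos Ech replicate 1 (117.9). Steap4 stood apart in HB GLASTpos E1 replicate 5 (0.963 CPM), SC GLASTneg E1 replicate 5 (8.997), SC GLASTneg E4 replicate 2 (2.246) and HB GLASTneg Ech replicate 3 (3.229). S1pr3 did so in HB GLASTpos C replicate 2 (10.99 CPM), SC GLASTneg E4 replicate 5 (1.365) and SC GLASTneg Ech replicate 1 (7.524), and Timp1 in SC GLASTneg C replicate 2 (10.17) and SC GLASTneg E4 replicate 2 (6.737). Hspb1 was highest in HB GLASTpos E4 replicate 3 (1.839 CPM) and Cd44 in SC GLASTneg E4 replicate 2 (61.53), the library with many myeloid transcripts. Osmr stood apart in HB GLASTpos C replicate 2 (1.895 CPM), SC GLASTneg E4 replicate 5 (5.004) and SC GLASTneg Ech replicate 1 (10.82), and Aspg in SC GLASTneg E4 replicate 5 (2.274), HB GLASTpos Ech replicate 3 (2.292) and SC GLASTneg Ech replicate 2 (1.223).

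The response differed between SC GLASTneg and HB GLASTneg cells by an interaction test for Aspg at E4 (-4.505 on the log2 scale) and Ech (-4.779), for Timp1 at E4 (-4.666) and for Serpina3n at Ech (3.314). The control library with 10.17 CPM decides the Timp1 value, which was -0.66 without it.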

How the results depend on the processing

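The number of the 10 genes called is given per comparison. RLE size factors moved no count by more than 1.5 times. With the compared groups alone, HB GLASTneg E4 went from 3 to 6 and Ech from 1 to 3, HB GLASTpos E4 from 1 to 2, and spinal cord E4 against E1, control HB GLASTpos against HB GLASTneg and the FVB/N comparisons labelled hindbrain and spinal cord to 0. FVB/N comparisons are named by the labels here and below. DESeq2, leaving out genes without an adjusted p, gave 2 at HB GLASTneg Ech, 3 at HB GLASTpos E4 and 0 in FVB/N hindbrain, and no count filter gave 2 and 2 at the former pair. The replicate block gave 2 at HB GLASTpos E4 and 1 for the E4 difference between SC GLASTneg and HB GLASTneg, and changed no other count by more than 1.5 times. Equal replicate numbers did not deviate together. The term for sample sheet number gave 0 for that difference, 0 for spinal cord E4 against E1 and 0 for the hindbrain controls. limma-voom with title numbers as a block gave 1 for the E4 and 1 for the Ech difference, and 1 (Lcn2, -5.10) for HB GLASTpos against HB GLASTneg at E4. Spinal cord libraries of sheet number 57 and above, chosen after seeing the data, gave 2 at E4, an arm of 1 library that is assumed to vary like the other groups, and 3 at Ech. Group names of the supplementary list turned Cd44 to -0.98 and -3.43 and Aspg to 0.28, leaving 1 call for spinal cord against hindbrain. The cause of the differing names was not tested, and Hox sums go against the region of some labels, as given above.

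Leaving out each library gave 3 to 4, 4 to 5 and 3 to 5 calls in SC GLASTneg, 2 to 4, 2 to 3 and 1 in HB GLASTneg and 1 to 5, 1 to 2 and 1 to 2 in HB GLASTpos cells at E1, E4 and Ech. It gave 0, 0 to 2 and 1 to 2 for SC GLASTneg against HB GLASTneg responses, 0 for HB GLASTpos against HB GLASTneg, 1 to 3 for spinal cord E4 against E1, 0 for Ech against E4, 0 and 0 to 1 for the controls, 0, 0 and 1 to 2 in FVB/N forebrain, hindbrain and spinal cord and 8 to 10 for cultures. Of gene values under alternatives, 4397 kept direction and side of the threshold, 47 gained a call, 118 lost one and 3 turned. Genes at a few counts, Steap4 and Lcn2 in spinal cord among them, are limited by depth, as are FVB/N libraries, where 3 counts are up to 7.2 CPM.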

Other observations

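Serpina3n stood at 116 to 222 CPM in the 15 freshly sorted libraries of untreated FVB/N mice and at 0 to 32.2 CPM in the 15 libraries of unimmunized C57BL/6J mice, without overlap. The tables were normalized separately, strain and experiment differ together and cannot be told apart, and no test was run. Cp showed no such gap, with group means of 0.543 to 28.9 CPM in FVB/N and 4.75 to 7.30 CPM in C57BL/6J control groups.

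After group means were removed, the correlation between pairs of the 10 genes over the 66 EAE libraries ran from -0.13 to 0.60 with a median of 0.27 over 45 pairs, as a description of libraries that also share depth and cell makeup.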
